A study of Arabidopsis thaliana with 2 samples.

Results

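The genes described here are the homeobox genes of Arabidopsis thaliana, looked up in 2 lists of DNA regions bound in vitro by altered complexes of SEPALLATA3 (SEP3) and AGAMOUS (AG), which are floral MADS-domain transcription factors. They were chosen by name: a protein-coding gene was a member when its symbol or a synonym in the RefSeq gene table (TAIR10.1) was HB, ATHB, HAT, WOX, KNAT, BLH or HDG followed by digits, or was WUS, STM, BP, BEL1, PHB, PHV, REV, PNY or PNF. This gave 98 members of 27444 protein-coding genes on the 5 nuclear chromosomes, 79 of them by their main symbol and 19 by a synonym alone. The rule itself uses names and no peak.

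The name rule also caught 5 genes that belong to no homeobox class, so the label holds for 93 of the 98. HB1 (AT2G16060) and HB2 (AT3G10520) are haemoglobin genes. HAG1 (AT3G54610), a histone acetyltransferase, has HAT1 among its synonyms, and SHM1 (AT4G37930), a serine hydroxymethyltransferase, has STM. AT1G27050 shares the synonym ATHB54 with its neighbour AT1G27045 and was in none of the class lists. All 5 were kept in the counts because the rule takes them in. In the other direction, 5 homeobox genes of the class lists (ATML1, PDF2, ANL2, GL2 and ATH1) carry none of these names. Of these, ANL2 had a peak of each list between 1000 and 3000 bp away and the other 4 had none within 3000 bp.

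The complexes compared were SEP3Δtet3M-AG and SEP3Δtet-AGΔtet, each with 1 peak list and no replicate. Both are tetramerization mutants of the SEP3-AG heterotetramer per the design text, which does not say what 3M stands for. The genotype label reads SEP3Δtet3M-AG for both samples, so the groups rest on the sample titles. The proteins met genomic DNA of bulk, untreated seedlings aged 2 weeks, purified away from its chromatin, and the unaltered complex was not analysed here. Because the sample is DNA and not RNA, no marker gene could check the labelled tissue.

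Homeobox genes encode transcription factors that bind DNA through a homeodomain. In plants they fall into classes with different partner domains. Class I KNOX proteins and WUS keep shoot and floral meristems growing, BELL proteins act as partners of KNOX proteins, class III HD-ZIP proteins set the upper side of leaves and the vascular pattern, and class IV HD-ZIP proteins act in the epidermis. SEP3 and AG specify stamens and carpels, and AG ends the activity of the floral meristem, in which WUS acts.

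Each file gave a chromosome, a start and an end, with no score, so a peak was present or absent and its strength is unknown. There were 1681 peaks for SEP3Δtet3M-AG and 2277 for SEP3Δtet-AGΔtet, all 400 bp wide. The read depth behind each list is unknown. With 1 library per complex, a difference between the lists has no replicate error and was not tested. Intervals are exact 95% intervals (Clopper-Pearson for shares, Poisson for rates) and cover the counting of genes or peaks only.

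The share of homeobox genes near a peak was a little above that of other genes, by less than the counting error. With SEP3Δtet3M-AG, 15 of the 98 members had a peak midpoint inside the gene or within 3000 bp of it (15.3%, interval 8.83 to 24.0), against 12.0% of all protein-coding genes. With SEP3Δtet-AGΔtet, 20 members did (20.4%, interval 12.9 to 29.7), against 15.8% of all protein-coding genes. Among protein-coding genes outside the rule the shares were 12.0% and 15.8%. Both intervals for the members include the share of the other genes. Counted over either list, 24 members had a peak (24.5%, interval 16.4 to 34.2), against 19.2% of all protein-coding genes. The other 74 (75.5%) had none, against 80.8%.

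The 9 genes that the rule names in full, which include the best known meristem and organ polarity regulators, had no peak of either complex within 3000 bp. For 9 genes a count of 0 allows a share of up to 33.6%, so it cannot be set apart from the 19.2% of all protein-coding genes. WUS (AT2G17950), which maintains stem cells, lay 21.7 kb from the closest peak of each list. STM (AT1G62360), which keeps shoot meristem cells undifferentiated, lay 84.0 kb from the closest SEP3Δtet3M-AG peak and 13.6 kb from the closest SEP3Δtet-AGΔtet peak. For KNAT1 (AT4G08150, the BP gene), which shapes the inflorescence, the distances were 33.1 kb and 38.8 kb. WUS, STM and KNAT1 were the KNOX and WOX genes among the 9 named in full, and none of them had a peak within 3000 bp.

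The class III HD-ZIP and BELL genes named in full were outside the limit too. REV (AT5G60690) lay 6.72 kb from the closest SEP3Δtet3M-AG peak and 13.4 kb from the closest SEP3Δtet-AGΔtet peak. PHB (AT2G34710) lay 7.90 kb and 7.92 kb away, and PHV (AT1G30490) 9.05 kb and 9.04 kb. RPL (AT5G02030, the PNY gene), a BELL gene of stem and fruit patterning, lay 6.12 kb and 6.13 kb from the closest peaks. BLH8 (AT2G27990, the PNF gene), its close relative, lay 27.5 kb from each. BEL1 (AT5G41410), which gives ovule integuments their identity, lay 14.5 kb from each. Over all 98 members the median distance to the closest peak was 15.2 kb with SEP3Δtet3M-AG and 12.7 kb with SEP3Δtet-AGΔtet, against 21.4 kb and 15.7 kb for other protein-coding genes. These medians carry no interval, and their difference was not tested.

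**Figure D1:**
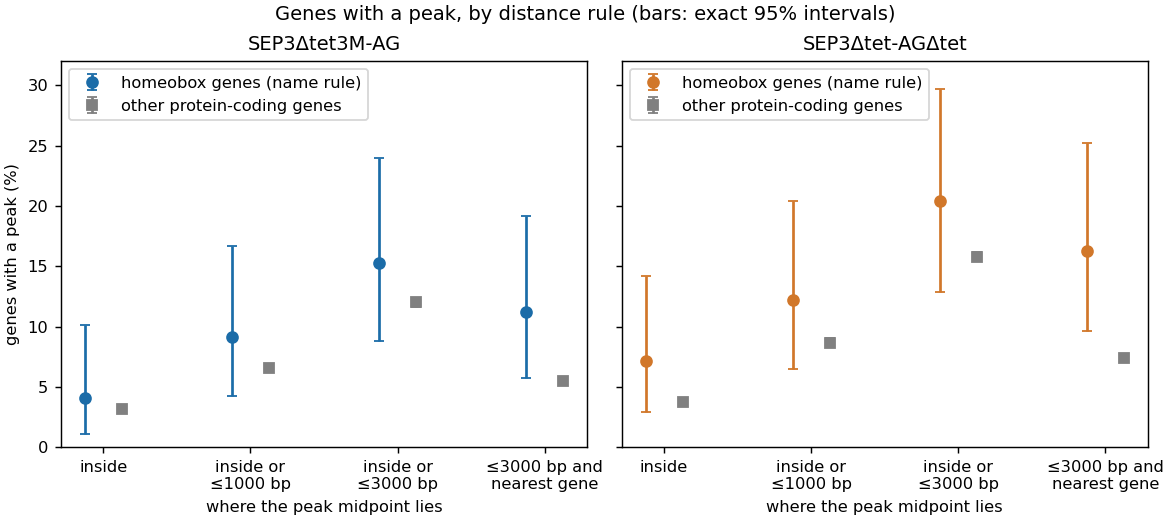
Share of genes with a peak midpoint (%), for homeobox genes by the name rule (coloured circles) and other protein-coding genes (grey squares), under 4 rules on where the midpoint lies, with SEP3Δtet3M-AG in the left panel and SEP3Δtet-AGΔtet in the right. Bars are exact 95% intervals. The homeobox share is the higher one under each rule, and its interval excludes the other genes' share for the nearest-gene rule alone (11.2% against 5.52% and 16.3% against 7.43%).

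Members divided between the 2 lists in shares close to those of other genes. Of the 24 members with a peak, 11 had one in both lists (45.8%), 4 with SEP3Δtet3M-AG only (16.7%) and 9 with SEP3Δtet-AGΔtet only (37.5%). Of the 5244 other protein-coding genes with a peak, the shares were 45.1%, 17.7% and 37.3%. As shares of all protein-coding genes, 8.65% had a peak in both lists, 3.39% with SEP3Δtet3M-AG only and 7.15% with SEP3Δtet-AGΔtet only. In 10 of the 11 members found in both lists, the peaks of the 2 complexes overlapped, with HDG1 as the exception. Of the 2364 other protein-coding genes found in both lists, 2286 had overlapping peaks.

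At 7 of the 10 peaks shared at members, the midpoints of the 2 complexes lay within 20 bp of each other. At KNAT2 (AT1G70510), a class I KNOX gene, the peak lay 844 bp outside the gene with SEP3Δtet3M-AG (chr1:26575443-26575842), and the SEP3Δtet-AGΔtet midpoint was 1 bp away. At WOX8 (AT5G45980), which patterns the early embryo, the SEP3Δtet3M-AG peak lay 429 bp outside the gene (chr5:18648258-18648657) and the midpoints were 2 bp apart. WOX8 also held a SEP3Δtet-AGΔtet peak in the gene body that SEP3Δtet3M-AG lacked (chr5:18649706-18650105). At FWA (AT4G25530), a class IV HD-ZIP gene whose unmethylated alleles delay flowering, the peak lay 215 bp outside the gene with SEP3Δtet3M-AG (chr4:13037946-13038345) and the midpoints were 19 bp apart. In these 3 genes the member was also the protein-coding gene nearest to the peak.

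HB22 of locus AT2G36610, a class I HD-ZIP gene, was the only member with overlapping peaks inside the gene. Its SEP3Δtet3M-AG peak was at chr2:15349085-15349484 and the SEP3Δtet-AGΔtet midpoint was 3 bp away. At HB34 (AT3G28920), a zinc finger homeodomain gene, the midpoints lay just outside the gene, 92 bp away with SEP3Δtet3M-AG (chr3:10940014-10940413) and 52 bp away with SEP3Δtet-AGΔtet. At HB6 (AT2G22430), a class I HD-ZIP gene of abscisic acid signalling, the midpoints lay 2914 bp from the gene with SEP3Δtet3M-AG (chr2:9522875-9523274) and 2935 bp with SEP3Δtet-AGΔtet. HB6 is thus the member closest to the 3000 bp limit from within. HDG10 (AT1G34650) had the widest spacing among overlapping peaks, 213 bp, with the SEP3Δtet3M-AG peak at chr1:12699034-12699433.

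Another 3 of the shared peaks lay nearer to a neighbouring gene than to the member. At HB20 (AT3G01220) the midpoints of both lists fell inside AT3G01230, with the SEP3Δtet3M-AG peak at chr3:76865-77264 and the other midpoint 11 bp away. At HB33 (AT1G75240), a zinc finger homeodomain gene, the shared peak (chr1:28243998-28244397 with SEP3Δtet3M-AG) lay 1402 bp from HB33 and 120 bp from RL6, and a further SEP3Δtet-AGΔtet peak lay inside RL6. At the haemoglobin gene HB1, which is no homeobox gene, the shared peak (chr2:6985866-6986265 with SEP3Δtet3M-AG) lay 2288 bp away and 445 bp from PDV2.

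HDG1 (AT3G61150), a class IV HD-ZIP gene expressed in the epidermis, had a peak of each complex inside the gene at different places. The SEP3Δtet3M-AG peak was at chr3:22634048-22634447 and the SEP3Δtet-AGΔtet peak at chr3:22630261-22630660, toward the opposite end. Neither overlapped a peak of the other list.

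Over the 15 SEP3Δtet3M-AG peaks at members, 10 overlapped a SEP3Δtet-AGΔtet peak (66.7%, interval 38.4 to 88.2), against 68.8% of the 1563 peaks at other protein-coding genes. Of the 22 SEP3Δtet-AGΔtet peaks at members, 10 were shared (45.5%, interval 24.4 to 67.8), against 50.1% of 2134. The median distance between overlapping midpoints was 7 bp at members and 8 bp at other genes. The midpoints lay within 20 bp of each other at 7 of the 10 shared peaks of members (70.0%), against 85.6% of the SEP3Δtet3M-AG peaks and 86.0% of the SEP3Δtet-AGΔtet peaks shared at other genes. For the share of peaks that overlapped, both intervals include the share at other genes.

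**Figure D2:**
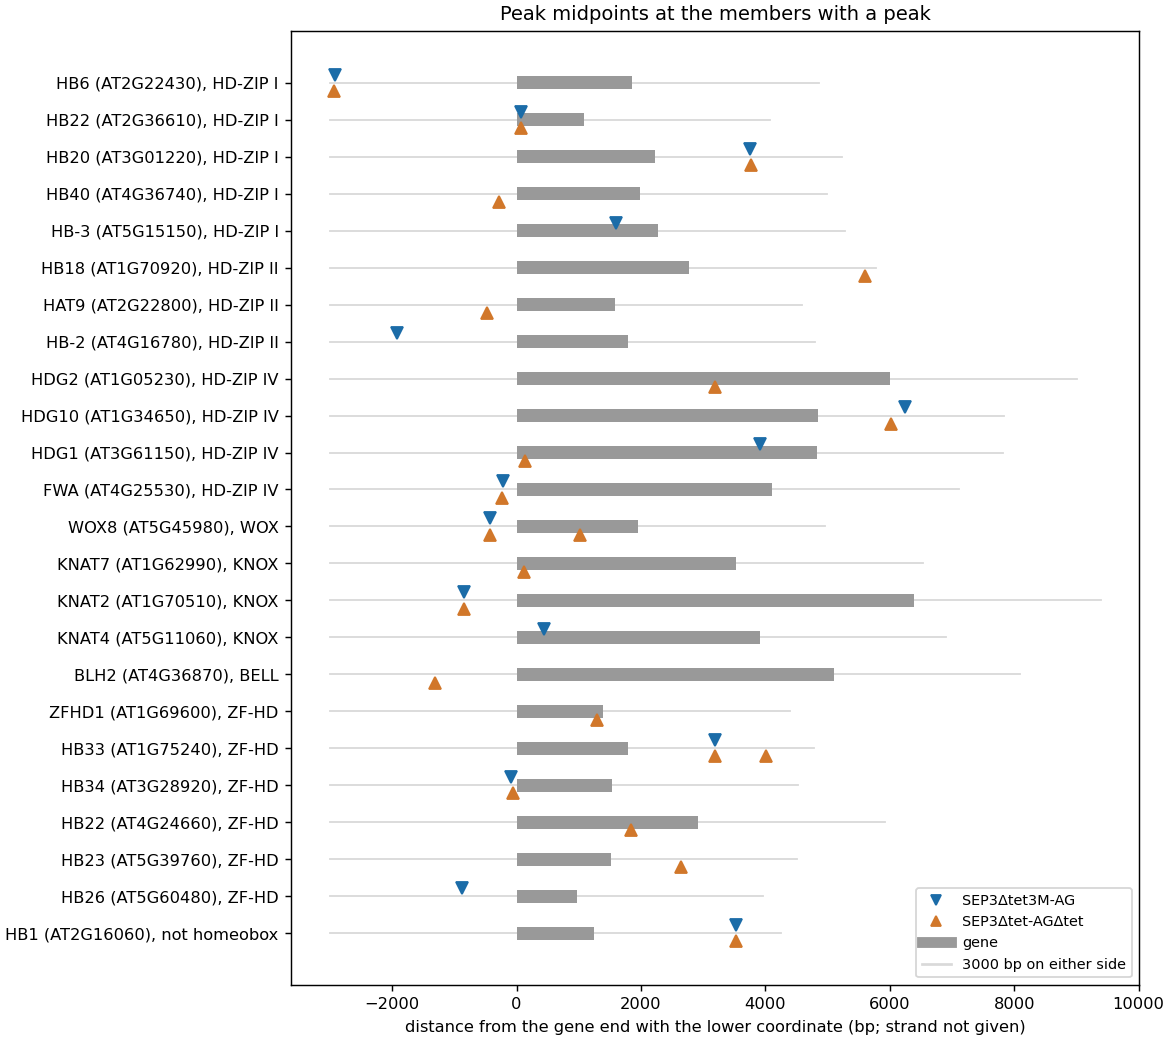
Position of each peak midpoint at the 24 members with a peak, in bp from the gene end with the lower coordinate, drawn to scale with the gene as a dark bar and the 3000 bp on either side as a pale line. Downward triangles stand for SEP3Δtet3M-AG and upward triangles for SEP3Δtet-AGΔtet. The triangles of the 2 complexes coincide at genes such as KNAT2, WOX8 and FWA and stand at opposite ends of HDG1.

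With SEP3Δtet3M-AG only, 4 members had a peak. KNAT4 (AT5G11060), a class II KNOX gene, held it inside the gene (chr5:3510081-3510480), as did HB-3 (AT5G15150, also HAT7), a class I HD-ZIP gene (chr5:4915103-4915502). HB-2 (AT4G16780, also ATHB2), a class II HD-ZIP gene of the shade response, had its peak 1918 bp outside. The peak near HB26 (AT5G60480), a zinc finger homeodomain gene, lay 876 bp from it and inside AT5G60470. The closest SEP3Δtet-AGΔtet peaks to these genes were 11.6 kb (HB26) to 32.6 kb (HB-2) away.

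With SEP3Δtet-AGΔtet only, 9 members had a peak, 4 of them inside the gene. These 4 were HDG2 (AT1G05230), which acts in epidermal differentiation (chr1:1515886-1516285), KNAT7 (AT1G62990), a class II KNOX regulator of secondary cell walls (chr1:23337095-23337494), ZFHD1 (AT1G69600), a zinc finger homeodomain gene of the drought response (chr1:26183244-26183643), and HB22 of locus AT4G24660 (chr4:12724556-12724955). The last is a zinc finger homeodomain gene and differs from the class I HD-ZIP gene of the same symbol. HB40 (AT4G36740), which acts in bud dormancy, had a peak 280 bp outside the gene, and HAT9 (AT2G22800), a class II HD-ZIP gene, 469 bp outside.

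The other 3 peaks of this group lay over 1000 bp from the member. HB23 of locus AT5G39760 had it 1138 bp away, and BLH2 (AT4G36870, also SAW1), a BELL gene of the leaf margin, 1302 bp away. HB18 (AT1G70920) had it 2834 bp away, 1441 bp from PIN3, an auxin efflux carrier gene. The closest SEP3Δtet3M-AG peaks to these 9 genes lay 3.47 kb (HB40) to 84.6 kb (HB23) away. HB40 was the only member of the 13 with a peak in 1 list only for which the other list had a peak between 3000 and 5000 bp away. No such count was made for other protein-coding genes.

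Peaks inside homeobox genes were few. With SEP3Δtet3M-AG, 4 of the 98 had a midpoint inside (4.08%, interval 1.12 to 10.1), against 3.17% of all protein-coding genes. With SEP3Δtet-AGΔtet, 7 had one (7.14%, interval 2.92 to 14.2), against 3.80%. The remaining members with a peak, 11 (11.2% of the 98) and 13 (13.3%), had flank peaks only, against 8.88% and 12.0% of all protein-coding genes. Among members with a peak, 73.3% had flank peaks only with SEP3Δtet3M-AG and 65.0% with SEP3Δtet-AGΔtet. For other protein-coding genes with a peak the shares were 73.7% and 76.0%. Within 1000 bp, 9 members had a SEP3Δtet3M-AG peak (9.18%, interval 4.29 to 16.7; 6.61% of all protein-coding genes) and 12 a SEP3Δtet-AGΔtet peak (12.2%, interval 6.49 to 20.4; 8.69%).

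The classes differed in how many members had a peak, but each class is small. Within 3000 bp, zinc finger homeodomain genes had the most, 6 of 14 in either list (42.9%, interval 17.7 to 71.1): HB33 and HB34 in both lists, HB26 with SEP3Δtet3M-AG only, and ZFHD1, HB22 and HB23 with SEP3Δtet-AGΔtet only. KNOX genes followed with 3 of 8 (KNAT2, KNAT4 and KNAT7), class IV HD-ZIP genes with 4 of 12, class II with 3 of 10 and class I with 5 of 17. In these counts, the peaks of HB33, HB26, HB20 (class I) and HB18 (class II) lay nearer to another protein-coding gene than to the member. Within 1000 bp the order changed, with 3 of 8 KNOX genes (37.5%, interval 8.52 to 75.5) in either list. For zinc finger homeodomain genes it was 4 of 14 (28.6%, interval 8.39 to 58.1). Of all protein-coding genes, 6.61% had a SEP3Δtet3M-AG peak and 8.69% a SEP3Δtet-AGΔtet peak within 1000 bp, counted for each list alone. The share for either list at 1000 bp, which would match these class counts, was not computed. Within 3000 bp, BELL genes had 1 of 12, which was BLH2, and WOX genes 1 of 15, which was WOX8. None of the 5 class III HD-ZIP genes had a peak (upper limit 52.2%), although ATHB-15 (AT1G52150, also CORONA) had one of each list 3.38 kb away. The interval of each of the 8 classes includes the 19.2% of all protein-coding genes.

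**Figure D3:**
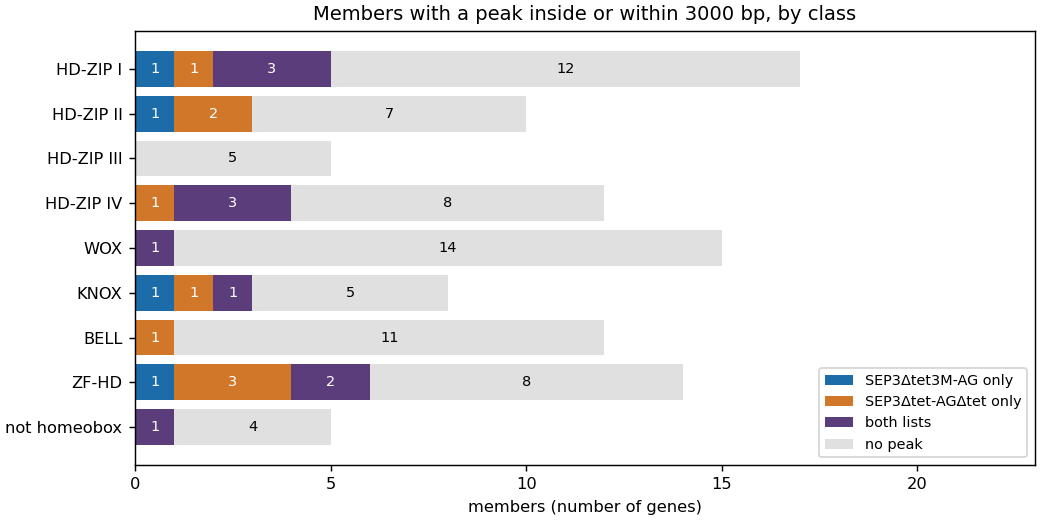
Number of members in each class with a peak inside or within 3000 bp with SEP3Δtet3M-AG only (blue), with SEP3Δtet-AGΔtet only (orange), with both (purple) and with neither (grey). ZF-HD stands for zinc finger homeodomain genes, of which 6 of 14 had a peak, and none of the 5 class III HD-ZIP genes had one.

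The limit of 3000 bp decides some of these calls. Of the 74 members without a peak, 11 had the closest peak of either list between 3000 and 5000 bp away. Among these 11, HB2 and SHM1 are no homeobox genes. Other protein-coding genes gained peaks with the wider limit too. With SEP3Δtet3M-AG their share was 12.0% at 3000 bp and 17.3% at 5000 bp, and with SEP3Δtet-AGΔtet 15.8% and 22.6%. The members' shares were 15.3% and 23.5% with SEP3Δtet3M-AG, and 20.4% and 29.6% with SEP3Δtet-AGΔtet. How many other genes without a peak had one between 3000 and 5000 bp away was not counted. Among the 11 members, HDG8 was the nearest, at 3111 bp from a SEP3Δtet-AGΔtet peak. WOX4, a gene of the vascular cambium, lay 3341 bp from a SEP3Δtet3M-AG peak and 3334 bp from a SEP3Δtet-AGΔtet peak.

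When a peak was given only to the nearest protein-coding gene, homeobox genes stood further above the rest. With SEP3Δtet3M-AG, 11 members were the nearest gene to a peak within 3000 bp (11.2%, interval 5.74 to 19.2), against 5.54% of all protein-coding genes. With SEP3Δtet-AGΔtet, 16 were (16.3%, interval 9.63 to 25.2), against 7.46%. Among other protein-coding genes the shares were 5.52% and 7.43%. Homeobox genes also had more free space around them: within the 3000 bp flanks, the bases for which the member was the nearest gene had a median of 2659.5 bp, against 914 bp for other genes. The gene itself was of similar length, with a median of 2255.5 bp against 2078 bp. Whether the free space bears on the nearest-gene shares was not tested.

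Per length of DNA the excess was smaller. The bases nearest to a member held 20.9 SEP3Δtet3M-AG midpoints per Mb (11 midpoints, interval 10.5 to 37.5), against 15.4 per Mb for other genes. For SEP3Δtet-AGΔtet the rates were 32.4 per Mb (17 midpoints, interval 18.9 to 51.8) and 21.1 per Mb. Over the whole windows of 3000 bp the members had 17.7 per Mb (interval 9.92 to 29.2) against 15.4 with SEP3Δtet3M-AG, and 26.0 per Mb (interval 16.3 to 39.4) against 21.1 with SEP3Δtet-AGΔtet. Each interval includes the rate of the other genes, so no higher rate at homeobox genes was detectable with these numbers of peaks.

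**Figure D4:**
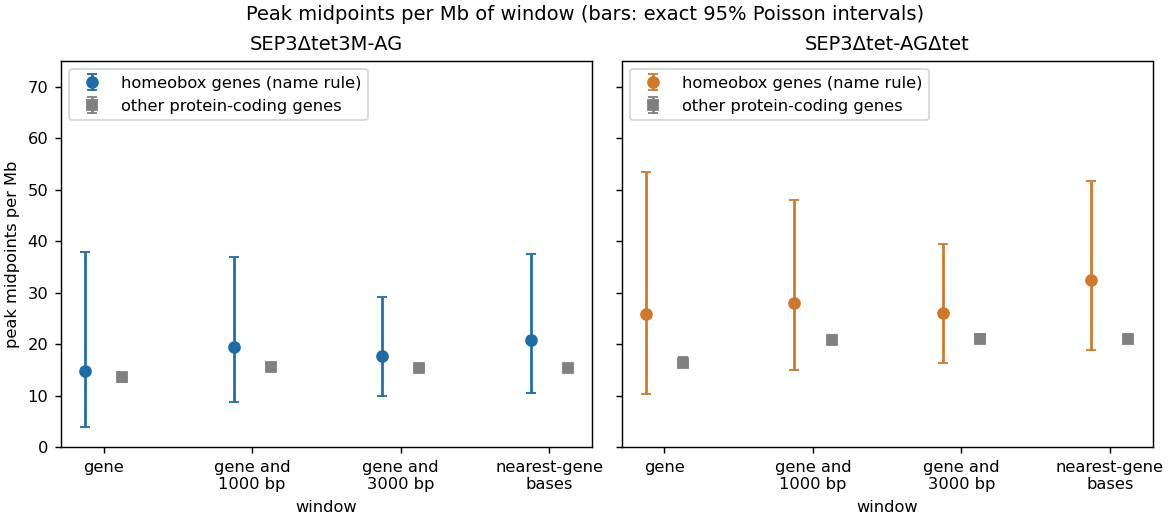
Peak midpoints per Mb in homeobox genes (coloured circles) and other protein-coding genes (grey squares), with SEP3Δtet3M-AG in the left panel and SEP3Δtet-AGΔtet in the right, for the gene alone, the gene with 1000 or 3000 bp on either side, and the bases nearest to the gene. Bars are exact 95% Poisson intervals, and every homeobox interval spans the rate of the other genes.

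Peaks were found at short and at long members alike, and whether length matters less for members than for other genes was not tested. Of the 46 members at or under the median length of all protein-coding genes (2078 bp), 17.4% had a SEP3Δtet3M-AG peak (interval 7.82 to 31.4) and 21.7% a SEP3Δtet-AGΔtet peak (interval 10.9 to 36.4). Of the 52 longer members, 13.5% (interval 5.59 to 25.8) and 19.2% (interval 9.63 to 32.5) did. Other protein-coding genes had 10.0% and 13.3% at or under the median, and 14.1% and 18.2% above it. HDG2, KNAT2 and BLH2 were long members with a peak, and HB26 and HB22 of locus AT2G36610 were the shortest of the 24 with a peak.

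Genes around the homeobox pathway were taken from a list of 32 that the name rule does not cover, made of further homeobox proteins, partners, upstream regulators and targets. With SEP3Δtet3M-AG, 3 had a peak within 3000 bp (9.38%), and with SEP3Δtet-AGΔtet 6 did (18.8%), close to the 12.0% and 15.8% of all protein-coding genes. BOP2 (AT2G41370), which with BOP1 keeps KNOX genes off in leaves, carried a peak within its gene body with each complex, with midpoints 1 bp apart (chr2:17238989-17239388 with SEP3Δtet3M-AG), and a further SEP3Δtet-AGΔtet peak 97 bp outside. BOP1 (AT3G57130) carried one within the gene body for SEP3Δtet-AGΔtet alone (chr3:21148393-21148792). ARR5 (AT3G48100), a cytokinin response gene, carried a peak of each complex within the gene body, with midpoints 8 bp apart.

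The targets of KNOX proteins with a peak were 2 hormone genes, each with SEP3Δtet-AGΔtet only. GA2OX4 (AT1G47990), a gibberellin-inactivating enzyme, held it inside the gene, and IPT7 (AT3G23630), an enzyme of cytokinin synthesis, had it 369 bp outside. MIF3 (AT1G18835), a mini zinc finger gene related to the zinc finger homeodomain class, had a peak 178 bp outside with SEP3Δtet-AGΔtet only. RLT1 (AT1G28420), a chromatin remodelling partner with a homeodomain, had one 541 bp outside with SEP3Δtet3M-AG only. The protein-coding gene nearest to that peak was AT1G28410 and not RLT1. The other 25 genes had no peak within 3000 bp. They include the gibberellin enzyme genes GA20OX1 and GA2OX2, and also CLV1, CLV3, AS1, CUC1 and CUC2. The 4 ZPR genes, which encode small partners of class III HD-ZIP proteins, had none either.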

How the data were processed

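Peak positions were the only values in the deposited files: 3 columns without a header, of which the start and end positions were used (unit "other", in bases, with the start shifted to count from 1). Per the submitters' processing notes, the authors used Bowtie2, SAMtools and MACS2. Not given in the sources used here were versions, caller settings, genome build, read numbers and pooling. Genes came from the TAIR10.1 RefSeq table, which holds no strand or exons, so upstream and downstream sides, exons, introns and UTRs are not told apart, and gene coordinates are not printed. Midpoints lay inside protein-coding genes for 52.2% (SEP3Δtet3M-AG) and 46.7% (SEP3Δtet-AGΔtet) of peaks as deposited, and for 57.6 to 59.5% and 59.4 to 61.0% after all peaks were shifted by 2000 to 20000 bp.

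A peak was given to each gene that contained its midpoint or ended within 3000 bp of it. Peaks were shared at 1 bp of overlap. Every member with a peak is named, as are the 9 members named in full in the rule. Classes and the list of 32 genes are textbook lists by locus, all 133 entries of which were found. The members and lists were chosen with earlier results of these data known. No list was tested, and each count stands beside the share over all protein-coding genes. Python 3.11.15 and SciPy 1.17.1 were used, and the assignment of peaks to genes was tested on simulated data. No sequence is shown, because no genome was used here.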

Additional observations from a re-analysis of the deposited data

How the results depend on the processing

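Of 65 recomputed values, 54 stayed within 1.5 times the reported count or within the interval of the reported rate, and 11 did not. With a flank of 1000 bp, 9 members had a SEP3Δtet3M-AG peak, 12 a SEP3Δtet-AGΔtet peak and 6 both, those with flank peaks only numbered 5 in each list, and the classes that fell by over 1.5 times were HD-ZIP I (3), HD-ZIP II (1) and BELL (0), with smaller drops in HD-ZIP IV (3) and ZF-HD (4). With a flank of 5000 bp, 23 members had a SEP3Δtet3M-AG peak and 17 had both. By main symbol alone, 2 members had a SEP3Δtet3M-AG peak only. In the changes of flank the window itself is narrower or wider, and other protein-coding genes moved with it, to 6.60% and 8.68% at 1000 bp and 17.3% and 22.6% at 5000 bp for SEP3Δtet3M-AG and SEP3Δtet-AGΔtet. Counts did not move by over 1.5 times with any peak base in place of the midpoint, midpoints within 100 bp or 200 bp of overlap as the meaning of shared, peaks merged within a list, the nearest gene only, or the 93 members of a homeobox class, for which names and class lists stood in for proteins. The comparison with other genes did change with the nearest gene only. Their shares fell to 5.52% with SEP3Δtet3M-AG and 7.43% with SEP3Δtet-AGΔtet, against 11.2% and 16.3% of members. Added after the data were seen were the rate over nearest-gene bases and a reading of the rule that allows a hyphen before the digits, which adds RLT1 (99 members). No paired analysis was possible because each complex has 1 list. With no scores and unknown depth, a missing peak cannot be told from a weak one.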

Other observations

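By chromosome, the share of members with a peak ranged from 12.0% (3 of 25, chromosome 1) to 23.1% (3 of 13, chromosome 3) with SEP3Δtet3M-AG, against 11.6 to 12.5% of other protein-coding genes. With SEP3Δtet-AGΔtet it ranged from 8.33% (2 of 24, chromosome 5) to 28.0% (7 of 25, chromosome 1), against 15.1 to 16.4% of other protein-coding genes. Chromosome 5 was the only one of the 5 on which more members had a SEP3Δtet3M-AG peak (4 of 24: HB-3, KNAT4, WOX8 and HB26) than a SEP3Δtet-AGΔtet peak (2 of 24: WOX8 and HB23). Among other protein-coding genes of that chromosome, 11.7% had a SEP3Δtet3M-AG peak and 15.5% a SEP3Δtet-AGΔtet peak. This difference was chosen after its values were seen and was not tested.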
